A study of Mus musculus with 2 samples.

Results

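The immunoproteasome is a form of the proteasome in which the catalytic subunits of the barrel-shaped core are exchanged for inducible relatives, encoded by Psmb8, Psmb9 and Psmb10. PA28 is a ring made of the products of Psme1 and Psme2 that caps the core and opens it. Of these 5 genes, 4 were measured by a probe set that the array's annotation gives to a single gene, each by 1 probe set, among 8721 named genes and 15340 probe sets in all. The rule took every probe set with 1 of the 5 gene symbols as its only symbol. Psme2 had no such probe set, because the probe set that names it also names the related gene Psme2b.

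The RNA came from epithelial cells of the colon of C57BL/6 mice, an inbred strain, at 7 weeks of age. The cells were kept either in PBS (buffered saline, the control) or with MIF, taken here to be the cytokine macrophage migration inhibitory factor. Each condition was measured on 1 Affymetrix array, so there is no spread between samples, and no p-value is given. The sources used here do not give the dose, incubation time, number and sex of the animals or the way the epithelium was isolated, nor whether animals were pooled. Values are the deposited signal intensities of probe sets on a linear scale, with differences given as log2 signal of the MIF array minus that of the PBS array. The number of arrays limits the precision.

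Proteasomes cut cytosolic proteins into peptides. Some of these peptides enter the endoplasmic reticulum through the TAP transporter, where they are loaded onto major histocompatibility complex (MHC) class I molecules and carried to the cell surface. Interferon gamma induces the immunoproteasome subunits and both PA28 genes, and the exchanged subunits change where proteins are cut. Lymphoid cells hold immunoproteasomes without induction, and epithelium of the gut carries them at levels that vary with immune activity.

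All 4 measured genes had a lower signal on the MIF array than on the PBS array, as had 53.2% of all assessed genes. The difference was largest in Psmb9, at 1.58-fold lower, followed by Psmb8 at 1.37-fold, Psmb10 at 1.24-fold and Psme1 at 1.15-fold. Their median log2 difference was -0.38, beside -0.01 over the 5839 genes that could be assessed. The constitutive subunits that the 3 catalytic members replace differed by less, between -0.12 and -0.02. The genes were chosen by these same differences between the arrays, so their direction and size are a description and support nothing.

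The start regions of the members are shown first, since interferon acts on these genes through short elements near the transcription start. The sequences are those of RefSeq, mouse build GRCm38.p6, each of 300 bases from 250 before to 50 after the annotated start and written 5′ to 3′ along the gene. All 5 genes were matched in the RefSeq promoter table, Psme2 with more than 1 start. Both strands were searched for the interferon-stimulated response element, spelled GAAA and again GAAA with any 2 bases between them, the gamma-activated site TTCNNNGAA and the antioxidant response element core TGACNNNGC, in which N is any base. Capitals mark a match. The windows are chr17:34197945-34198244 on the plus strand for Psmb8, chr17:34187281-34187580 on the minus strand for Psmb9, chr8:105938343-105938642 on the minus strand for Psmb10 and chr14:55578244-55578543 on the plus strand for Psme1.
Psmb8: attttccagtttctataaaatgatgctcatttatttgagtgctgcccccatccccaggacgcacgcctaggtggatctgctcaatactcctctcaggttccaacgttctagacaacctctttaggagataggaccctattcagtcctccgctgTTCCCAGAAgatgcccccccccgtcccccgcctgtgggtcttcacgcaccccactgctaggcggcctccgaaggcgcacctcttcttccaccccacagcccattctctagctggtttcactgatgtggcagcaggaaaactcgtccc
Psmb9: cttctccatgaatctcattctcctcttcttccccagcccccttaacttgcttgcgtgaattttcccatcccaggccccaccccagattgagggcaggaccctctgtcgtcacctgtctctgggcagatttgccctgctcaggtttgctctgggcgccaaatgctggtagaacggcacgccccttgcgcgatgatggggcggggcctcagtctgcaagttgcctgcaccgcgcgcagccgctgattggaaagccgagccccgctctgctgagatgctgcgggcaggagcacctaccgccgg
Psmb10: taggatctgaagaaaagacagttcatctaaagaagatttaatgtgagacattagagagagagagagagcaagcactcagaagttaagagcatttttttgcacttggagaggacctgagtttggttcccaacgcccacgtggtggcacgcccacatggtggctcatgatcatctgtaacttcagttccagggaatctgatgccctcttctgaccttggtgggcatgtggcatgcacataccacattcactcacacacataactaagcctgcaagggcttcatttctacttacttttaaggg
Psme1: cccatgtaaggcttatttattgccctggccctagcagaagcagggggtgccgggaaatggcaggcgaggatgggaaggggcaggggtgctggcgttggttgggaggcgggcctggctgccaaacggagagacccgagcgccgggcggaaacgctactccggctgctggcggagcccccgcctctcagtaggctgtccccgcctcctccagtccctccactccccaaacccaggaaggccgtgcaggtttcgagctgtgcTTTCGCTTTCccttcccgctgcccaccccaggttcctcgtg

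The Psmb8 window held 1 gamma-activated site, TTCCCAGAA, which reads as a match on both strands, from 97 to 89 bases before the start. The Psme1 window held 1 interferon-stimulated response element, TTTCGCTTTC, on the reverse strand within the transcribed part, from base 9 to base 18 counted with the start at 0. The windows of Psmb9, Psmb10 and Psme2 held none of the 3 motifs, which says only that these letters do not occur there. Of all 32851 windows of this length, 3.44% held the interferon-stimulated response element, 8.3% the gamma-activated site and 12.4% the antioxidant element. The antioxidant element occurred in the windows of the constitutive subunits Psmb5 (TGACGTCGC) and Psmb6 (TGACGGAGC), and in no member's window. The table had no window for Psmb7, the third constitutive subunit, so it was not searched. Among other interferon gamma-induced genes, 8 of 12 with a window held the interferon-stimulated response element. These were Cxcl10, Gbp2, Gbp3, Gbp5, Gbp7, Igtp, Irgm1 and Irgm2. The letters in Igtp and Irgm2 were the same, GAAACTGAAA, at different distances from the start. A match is a description of the sequence and shows no binding.

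Psmb9 and Tap1, which encodes a subunit of the peptide transporter, are transcribed away from each other from starts 226 bases apart. Their windows share 275 bases, so the sequence printed for Psmb9 holds most of the Tap1 window read on the other strand. Psmb9 differed by -0.66 and Tap1 by -0.30 on the log2 scale. The signal of Tap1 was 943 with PBS and 764 with MIF.

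The catalytic subunits are described in the order of their differences. Psmb9 replaces Psmb6, the subunit that cuts after acidic residues, and with the exchange this activity is largely lost. Its probe set read 2550 with PBS and 1613 with MIF, a log2 difference of -0.66. The MIF signal was 36.7% lower and still lay 6.96-fold above the signal floor of 232, below which signals were not interpreted. Psmb9 was the only member at least 1.5-fold lower, a size that 0.462% of assessed genes reached in this direction (27 of 5839). Ranked from the lowest difference, it stood at 16 of 5543 genes over the floor on both arrays.

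Psmb8 replaces Psmb5, the subunit that cuts after hydrophobic residues. It read 4027 with PBS and 2938 with MIF, a log2 difference of -0.45, and ranked 59 of 5543. Its probe set, with a name ending in _a_at, is of a kind that matches several transcripts of 1 gene. Psmb10 replaces Psmb7, which cuts after basic residues. It read 4289 and 3470 on the PBS and MIF arrays, a log2 difference of -0.31, and ranked 222.

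Psme1 encodes the alpha subunit of PA28. It read 4263 with PBS and 3693 with MIF, a log2 difference of -0.21, and ranked 580. No member was 2-fold lower, a size reached by 0.0856% of assessed genes. At 1.2-fold, which Psmb9, Psmb8 and Psmb10 passed and Psme1 did not, 6.29% of assessed genes were lower. All 4 members lay among the 25% of genes over the floor with the highest mean signal. Of these 1386 genes, 5 had a lower difference than Psmb9, 11 than Psmb8, 35 than Psmb10 and 121 than Psme1. The 5 were the uridine phosphorylase gene Upp1, the calcium-binding protein gene S100g and the MHC class II genes H2-Ab1, H2-Eb1 and H2-Aa.

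The probe set that the annotation ties to both Psme2 and Psme2b read 5821 with PBS and 4696 with MIF. Its log2 difference was -0.31, 1.24-fold lower. It cannot be given to either gene and is not counted among the members.

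**Figure D1:**
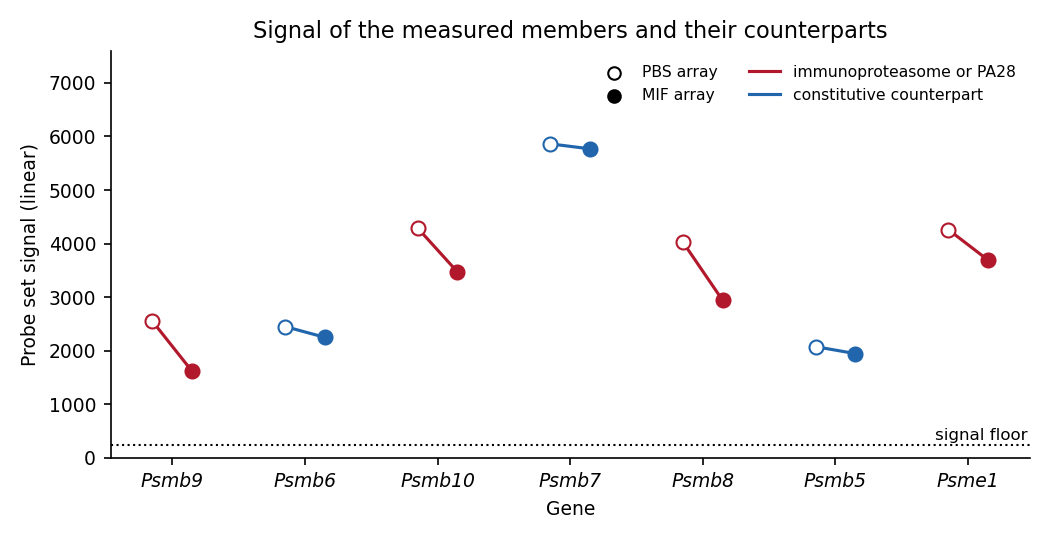
Signal of each measured member (red) and of the constitutive subunit that each catalytic member replaces (blue), with none for Psme1. The PBS array (open circle) and the MIF array (filled circle), 1 array each, are on a linear axis with the signal floor dotted. Psmb9 runs from 2550 to 1613, whereas Psmb6 runs from 2451 to 2250, and levels of different genes are not comparable because each probe set binds differently.

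No second probe set exists for any member, so its measurement error within the arrays could only be judged from other genes. Over 1800 genes with at least 2 probe sets over the floor on both arrays, the log2 differences of probe sets of a gene had a pooled SD of 0.15. The difference of Psmb9 was 4.53 times this SD, that of Psmb8 3.12 times, that of Psmb10 2.1 times and that of Psme1 1.42 times. Over all 5543 genes the SD of the difference was 0.19, and over the 1386 of highest mean signal, where all members lie, it was 0.17. These spreads come from the same RNA on the same arrays and do not measure the variation between cell preparations. The members were chosen by these same differences, so the ratios to the SD are a description and no measure of significance.

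**Figure D2:**
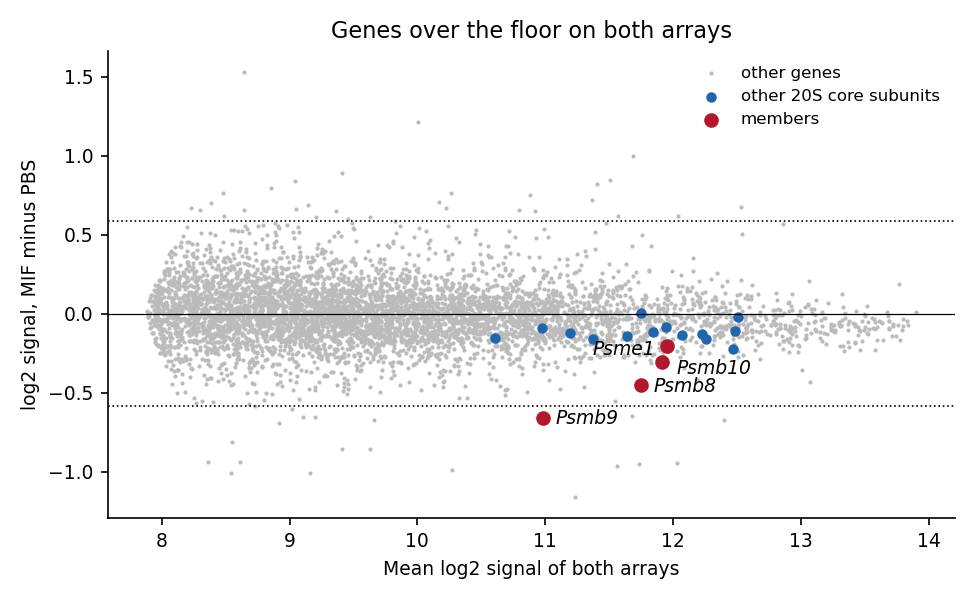
Difference between the arrays (log2 signal, MIF minus PBS) against the mean log2 signal for the 5543 genes over the floor on both arrays, with members in red, other subunits of the core in blue and 1.5-fold dotted. The 4 members lie below the zero line at the strongly hybridised side, and Psmb9 is the 1 member below the lower dotted line.

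Each catalytic member was set against the subunit whose place it takes. Psmb6 read 2451 with PBS and 2250 with MIF, a log2 difference of -0.12, and the difference of Psmb9 was lower than this by 0.54 (-0.54). Psmb5 read 2075 and 1946, a difference of -0.09, and Psmb8 minus Psmb5 came to -0.36. Psmb7 read 5861 and 5768, a difference of -0.02, and Psmb10 minus Psmb7 came to -0.28. As folds these gaps were 1.45, 1.29 and 1.22 in the order given. The members were chosen by their own differences and each condition has 1 array, so the gaps are a description, and they do not show that a constitutive subunit did not change. With 3 scalings other than that of the deposited values, Psmb9 minus Psmb6 stayed between -0.54 and -0.53, whereas the sign of Psmb7 turned with quantile normalization and with loess removal of the intensity trend.

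The other subunits of the core, these 3 included, were mostly a little lower. The table held 14 of 16 such genes on the list, all over the floor on both arrays, and 13 were lower, 12 under quantile normalization or loess removal of the intensity trend and 14 under median centring. Of all assessed genes, 53.2% were lower with the deposited values, 54.3% under quantile normalization, 52.9% after loess removal and 61.7% under median centring, which shifts all genes downwards. None of the 14 core genes reached 1.2-fold in either direction, which 367 of all 5839 assessed genes did downwards and 398 upwards. The median of the 14 was -0.13 and their range -0.23 to 0.01. Psmb4 (-0.23), Psmb3 (-0.16) and Psma6 (-0.16) were the lowest, and Psma1 stood at 0.01. A second probe set of Psmb4 went the other way, at 0.15. The thymus-specific subunit gene Psmb11 and the testis-specific Psma8 were not in the table.

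The regulatory particle, which recognises and unfolds ubiquitin-tagged proteins, was represented by 21 of 22 listed genes, with a median of -0.13. Of these, 15 were lower and 6 higher, beside 53.2% of all genes lower, and with median centring 17 and 4, beside 61.7%. Psmd14, the deubiquitinase of the particle, had the lowest value, from 4056 with PBS to 3268 with MIF (-0.31). The assembly factor Psmd9 followed at -0.29, from signals of 313 and 257 near the floor, and Psmd7 at -0.21. The highest were the ATPase Psmc4 at 0.15, with a second probe set at -0.15, the assembly factor Psmd10 at 0.15 and Psmd12 at 0.07. Other probe sets of Psmc6, Psmd6 and Sem1 read higher, at 0.32, 0.11 and 0.13, than those that stood for these genes, at 0.04, -0.15 and -0.08. Over these 35 other genes of the core and the regulatory particle, none had a lower difference than Psmb9 or Psmb8. Psmd14 alone was lower than Psmb10, and Psmb4, Psmd4, Psmd7, Psmd9 and Psmd14 were lower than Psme1. This holds for the probe set of highest signal of each gene. A further probe set of Psmd11 (-0.34) was also lower than Psmb10, and one of Psmb3 (-0.24) lower than Psme1. Of all 5543 genes over the floor on both arrays, 0.289% lay at or below Psmb9 and 1.06% at or below Psmb8. For Psmb10 and Psme1 these shares were 4.01% and 10.5%. The members were chosen by these same differences, so the counts are a description and support nothing.

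Other caps and assembly factors of the proteasome gave mixed values, and all 8 listed genes were measured. Psme3, the nuclear relative of Psme1 and Psme2 that forms a PA28 ring of its own, had 2 probe sets that disagreed. The first read 596 with PBS and 726 with MIF (0.28), and the second 564 and 506 (-0.16). Psme4, a large single-chain activator, had 3 probe sets at 0.17, -0.02 and 0.11. Psmf1, which was first described as an inhibitor of the proteasome, differed by -0.18. Pomp, the maturation protein needed to assemble new core particles, read 3310 and 2977 (-0.15). The assembly chaperone genes Psmg1, Psmg2, Psmg3 and Psmg4 differed by -0.18, -0.13, -0.18 and -0.26, with a second probe set of Psmg2 at 0.02. The list's median was -0.16, with 6 of 8 lower, beside 53.2% of all assessed genes. Of these, 1, Psmg4, passed 1.2-fold only after median centring, quantile normalization or loess removal of the intensity trend. With the deposited values, 6.29% of all assessed genes were at least 1.2-fold lower.

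**Figure D3:**
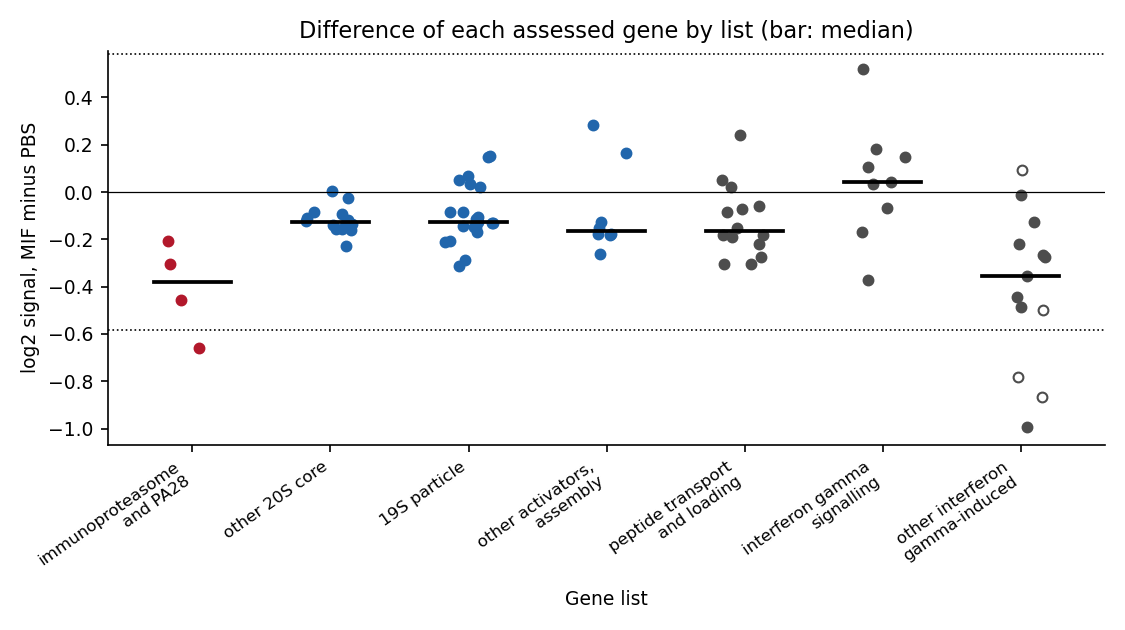
Difference between the arrays (log2 signal, MIF minus PBS) of every assessed gene, by list, with the median as a bar, open circles for genes under the floor on 1 array, whose difference is a bound, and 1.5-fold dotted. The medians are -0.38 for the members, -0.13 for the other core subunits and -0.35 for the other interferon gamma-induced genes.

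The steps that follow the proteasome were examined next. Of 14 measured genes of peptide transport and loading, 11 were lower, 12 with median centring, 10 with loess removal of the intensity trend and 9 with quantile normalization, and 3 were at least 1.2-fold lower, or 2 with loess removal, quantile normalization or averaged probe sets. Beside this, 53.2% of all assessed genes were lower with the deposited values, 61.7% with median centring, and 6.29% at least 1.2-fold lower. The list's median was -0.17. Both subunits of the transporter were lower by nearly equal amounts, Tap1 at -0.30 and Tap2 at -0.30, where Tap2 read 879 with PBS and 712 with MIF. Lap3, a cytosolic aminopeptidase that trims peptides, read 2710 and 2239 (-0.28). Tapbpl, a peptide editor, differed by -0.22, and Tapbp, which links the transporter to class I molecules, by -0.15 with a second probe set at 0.09.

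The class I molecules themselves differed by less on the probe sets of highest signal. H2-K1 differed by -0.18, with further probe sets at -0.32 and -0.39, H2-D1 by -0.08 and the light chain gene B2m by -0.06, of which the last 2 turned above 0 with quantile normalization. Further probe sets over the floor were lower than these, at -0.15, -0.12 and -0.23 for H2-D1 and at -0.14 for B2m. Probe sets of the class I genes can cross-hybridise, because these genes resemble each other. The chaperone genes Calr, Pdia3 and Canx differed by -0.18, -0.07 and 0.05. Erap1, the trimming peptidase of the endoplasmic reticulum, differed by 0.02, and Tpp2, a cytosolic peptidase, was the highest of the list at 0.24, with a second probe set at 0.34. Nrd1, a further cytosolic peptidase, differed by -0.19, with a second probe set at -0.12.

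Psmb8 and Psmb9 lie with the transporter genes in the MHC class II region of chromosome 17. In the gene order of GRCm38.p6, used here for neighbours only, 8 protein-coding genes on either side of Psmb8 were read. Of these 16 genes, 8 were over the floor on both arrays, 1 (H2-DMb2) was under it on both, and 7 had no probe set of their own. H2-DMb1, among the 7, shares probe sets with H2-DMb2, which are given to neither. One of the 8 is the member Psmb9. The other 7 all had negative differences, beside 53.2% of all assessed genes, though that of Brd2 was only -0.06. The peptide-loading gene H2-DMa (-0.86) lay on one side of Psmb9, Tap1 and Tap2 (-0.30 each) lay on either side of Psmb8, and H2-Ab1 (-0.97), H2-Aa (-0.67) and H2-Eb1 (-0.95) lay beyond Tap2. Brd2, a chromatin reader gene past H2-DMa, differed by -0.06. Beyond it, Rxrb and Slc39a7 differed by -0.06 and 0.09.

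The other members lie elsewhere. Psmb10 lies on chromosome 8, and 4 of the 16 genes around it, 8 on either side, were over the floor on both arrays. All 4 were lower, beside 53.2% of all assessed genes. The amounts were small, Nfatc3 at -0.16, Edc4 at -0.08, Esrp2 at -0.05 and Thap11 at -0.0053. Of the 16 genes around Psme1 on chromosome 14, 5 were over the floor on both arrays. Among the 5, 2 were lower and 3 higher, beside the same 53.2% of all assessed genes lower. The 5 were Dhrs4 (-0.09), Ipo4 (-0.03), Dcaf11 (0.0049), Irf9 (0.15) and Pck2 (0.18). Emc9, which lies between Psme1 and Psme2, was under the floor on both arrays.

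**Figure D4:**
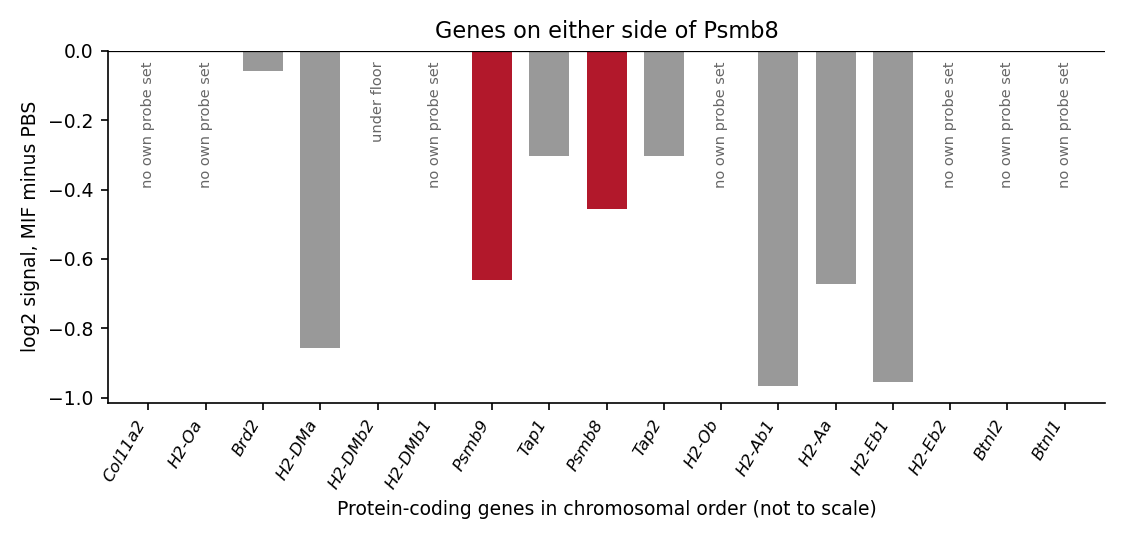
Difference between the arrays (log2 signal, MIF minus PBS) for Psmb8 and the 8 protein-coding genes on either side, in chromosomal order and not to scale, with the members in red. All bars, Psmb8 and Psmb9 included, point down, from -0.06 at Brd2 to -0.97 at H2-Ab1, and genes with no bar had no probe set of their own or were under the floor on both arrays.

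Genes of the interferon gamma pathway that act upstream of the members showed no common direction. Of 13 listed genes, 12 were in the table and 9 could be assessed, 6 higher and 3 lower, or 5 and 4 with median centring or averaged probe sets. Beside this, 53.2% of all assessed genes were lower with the deposited values, 61.7% with median centring and 50.1% with averaged probe sets. The median of the 9 was 0.04. Irf8, a transcription factor of interferon responses, had the lowest value, from 3042 with PBS to 2352 with MIF (-0.37), and its second probe set agreed in direction at -0.44. Irf1, which drives the immunoproteasome genes in interferon-treated cells, read 2432 and 2162 (-0.17). Irf2, a competitor of Irf1 at the same element, was the highest at 0.52, from 331 to 475. Irf9 and Stat2, partners in the type I interferon complex, differed by 0.15 and 0.04.

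The receptor genes Ifngr1 and Ifngr2 differed by -0.07 and 0.18, and the receptor kinase genes Jak1 and Jak2 by 0.11 and 0.04. Ifng itself, the feedback inhibitor Socs1 and the class II transactivator Ciita were under the floor on both arrays. Ifng read 40.6 and 26.0, and the brighter probe set of Ciita 146 and 88.0, signals too low to order. Nlrc5, the class I transactivator, was not in the table.

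Other genes induced by interferon gamma were lower alongside the members. Of 18 listed, 14 were in the table and 13 assessed, of which 12 were lower, 11 once the arrays were quantile-normalized or the intensity trend was removed, and 3 were at least 1.5-fold and 9 at least 1.2-fold lower, the latter 8 with the trend removed. Over all assessed genes these shares were 53.2% lower, 0.462% at 1.5-fold and 6.29% at 1.2-fold, and the list was chosen with earlier results of these data known. Of the 13, 9 were over the floor on both arrays. Ido1, Ubd and Gbp6 were assessed through their PBS signal alone and could only count as lower. Gbp3 was assessed through its MIF signal alone and could only count as higher. Of the genes at least 1.5-fold lower, Iigp1 alone was over the floor on both arrays. The list's median was -0.35. Iigp1, a GTPase directed at intracellular pathogens, read 1739 with PBS and 874 with MIF (-0.99), with a second probe set at -1.18. Ido1, which degrades tryptophan, read 422 and 136, and Ubd, a ubiquitin-like protein that sends its targets to the proteasome, 398 and 145. Their MIF signals lay under the floor, so Ido1 was at least 1.82-fold and Ubd at least 1.72-fold lower. Gbp6 was at least 1.41-fold lower in the same way. Wars, the tryptophan tRNA synthetase, read 1952 and 1395 (-0.48), and its other 3 probe sets lay between -0.54 and -0.30.

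Among the GTPases with signals over the floor on both arrays, Igtp differed by -0.35, Gbp2 by -0.27, Irgm2 by -0.27, Gbp7 by -0.22 and Irgm1 by -0.01. The chemokine gene Cxcl9 read 316 and 233 (-0.44), the latter just over the floor, and Socs3 differed by -0.13. Gbp3 was the exception to the direction, at least 1.07-fold higher with a PBS signal just under the floor. Cxcl10 was under the floor on both arrays, and Gbp4, Gbp5, Cxcl11 and Cd274 were not in the table. Psmb9 and Psmb8 thus lay below the list's median of -0.35, and Psmb10 and Psme1 above it.

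With 2 arrays, likeness of pattern reduces to nearness of the difference. The genes over the floor on both arrays whose log2 difference was nearest to that of Psmb9 were Cd99 (-0.66), Fabp6 (-0.65) and Sct (-0.67).

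The tissue label was checked against marker genes. Of 10 epithelial markers, 9 were over the floor on both arrays, Epcam at 8889 with PBS and 8830 with MIF, and the exception was Cldn4. Of 20 T and NK cell markers 7 were in the table, with a summed signal of 1593 with PBS and 883 with MIF. The granule proteases Gzma (813 and 403) and Gzmb (541 and 282) were over the floor, and Cd3g, Cd8a, Prf1, Nkg7 and Klrd1 were under it on both arrays. Of 15 myeloid and dendritic cell markers 9 were in the table, with sums of 2037 and 2034, of which Cd14 and, on the MIF array alone, Lyz2 were over the floor. The defining leukocyte gene Ptprc was under the floor, at 173 and 137. Of 10 B and plasma cell markers 2 were in the table, and the 1 over the floor, Xbp1, is also a gene of secretory epithelium. The 10 fibroblast markers summed to 910 and 2209, with Dcn, Col3a1 and Vim over the floor on the MIF array and Dcn alone on the PBS array. No endothelial or smooth muscle marker in the table was over the floor.

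Lymphocytes carry immunoproteasomes of their own, and the lymphocyte proteases differed in the same direction as the members. Their part in the lower signals of Psmb8, Psmb9, Psmb10 and Psme1 was not tested. In bulk RNA, fewer cells of a type and less RNA per cell cannot be told apart.

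The order of the 4 members, from Psmb9 as the lowest to Psme1 as the highest difference, was kept under each processing that gave them a value. Only quantile normalization and loess removal could change it, because median centring shifts all genes alike and the other alternatives leave these values as they are.

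**Figure D5:**
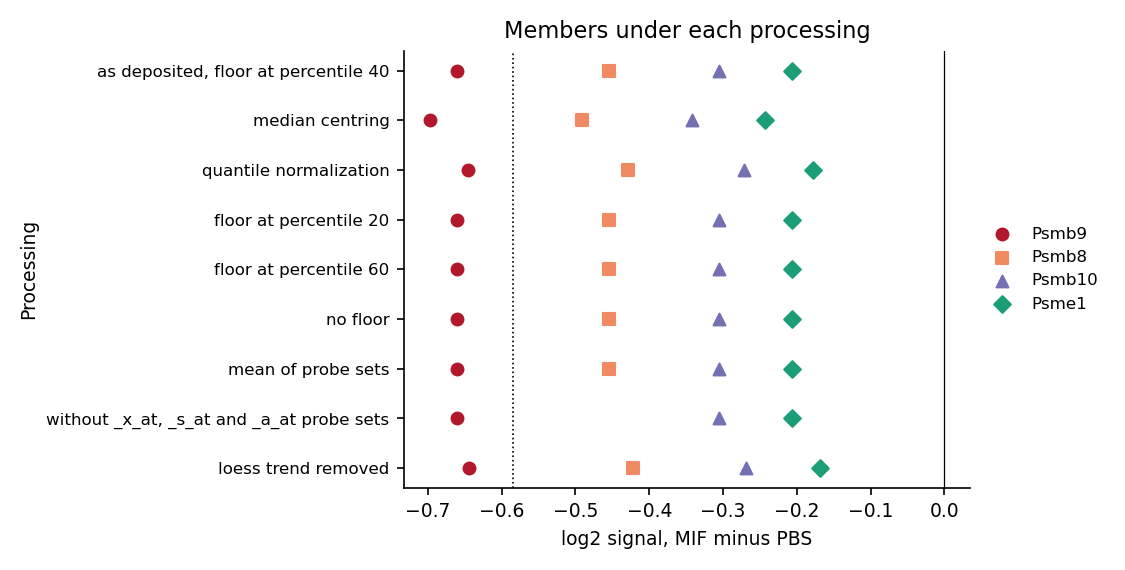
Difference between the arrays (log2 signal, MIF minus PBS) of the 4 members under each processing, with 1.5-fold dotted. Psmb9 stays between -0.70 and -0.64 and Psme1 between -0.24 and -0.17, and Psmb8 has no point without probe sets ending in _x_at, _s_at or _a_at because its only probe set is of that kind. Only median centring, quantile normalization and loess removal could move a point.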

How the data were processed

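The deposited values are probe set intensities that the authors had summarised, and their spread shows a linear scale. RNA was isolated with Trizol and labelled with biotin by the Affymetrix procedure, per the labels' protocols. The sources used here do not give the summary method, background correction, scaling or choice of the probe sets.

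Of 15340 probe sets, 61 controls were left out. Gene symbols came from GEO's platform annotation and may be outdated: 14049 had 1 symbol, 490 several and 740 none. For 14034 of those with 1 symbol, the RefSeq symbol of the Entrez ID was used, whether or not it differed from the platform's.

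Column medians (337 for PBS, 346 for MIF, a log2 difference of 0.04) differed by less than 0.1, so the values were used as deposited. Signals under the 40th percentile, 232, were raised to it. The 2882 genes under this floor on both arrays were not assessed, and a gene under it on 1 array gave a bound (154 on PBS, 142 on MIF). The probe set of highest mean log2 signal stood for a gene. A gene was called at 1.5-fold.

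Some listed items are not reported here. Members, lists, pairs and motifs were chosen with earlier results of these data known. All members, and all measured genes of the counterpart, activator, peptide loading and interferon gamma lists, were named, as were the 3 extremes in each direction of other lists. The genes lower than Psmb9, Psmd4, the chromosomal neighbours and the marker genes outside these rules were named after their values were seen. Nrd1 and Wars entered under their table symbols, corrected after the values were seen.

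Alternatives were median centring, quantile normalization, floors at the 20th and 60th percentile or none, averaged probe sets, no probe sets ending in _x_at, _s_at or _a_at, removal of a loess trend (span 0.3), and thresholds of 1.2-fold and 2-fold. The steps were tested on simulated data. Scripts ran in Python 3.11.15 (pandas 2.3.3, numpy 2.4.6, matplotlib 3.10.9, statsmodels 0.14.6).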

Additional observations from a re-analysis of the deposited data

How the results depend on the processing

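No paired analysis was possible because each group has 1 array. All 4 members kept their direction under every alternative that gave a value, with shifts below the SD between probe sets, 0.15 on the log2 scale. Each member has 1 probe set, with both signals over every floor used. The floors, averaged probe sets and leaving out probe sets therefore could not change a member's value. Only median centring, quantile normalization and loess removal could, and median centring shifts all genes alike. Psmb9 ranged from -0.70 to -0.64, Psmb8 from -0.49 to -0.42, Psmb10 from -0.34 to -0.27 and Psme1 from -0.24 to -0.17, and the median over the members from -0.42 to -0.31. Leaving out probe sets ending in _x_at, _s_at or _a_at gave no value for Psmb8. The count of members lower by the threshold was 1 at 1.5-fold under all the other alternatives, 3 at 1.2-fold and 0 at 2-fold, where 0.0856% of genes were lower. Over all genes, 27 were at least 1.5-fold lower, but 49 for the lower floor (20th percentile), 12 for the higher (60th) and 198 for none, while 37 were higher, or 98, 19 and 455. Median centring turned this balance, with 32 lower and 28 higher. Of the lists around the members, the interferon gamma signalling genes had a median of -0.02 with no floor, which turns its sign. The fibroblast median, 1.26, came from 3 assessed genes, of which 1 was over the floor on both arrays. It moved to 1.04, 0.30 and 1.41 in the same order of floors, to 0.63 with averaged probe sets and to 1.53 without probe sets ending in _x_at, _s_at or _a_at. The T and NK cell median, -0.98 from 2 assessed genes, moved to -0.41 with the higher floor and to -0.61 with none. The B and plasma cell value, from 1 assessed gene, went from 0.02 to -0.87 with none. The floors change which genes are assessed and also the value to which lower signals are raised. At the higher floor, 498, the T and NK cell genes assessed were still Gzma and Gzmb. Their MIF signals, 403 and 282, were raised to that floor. For other moves the cause was not tested.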
